A study of Mus musculus with 2 samples.

Results

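The 10 genes described here belong to prostaglandin and leukotriene synthesis and sensing, and were followed through mouse kidney cells. They are the cyclooxygenases *Ptgs1* and *Ptgs2*, the prostaglandin D synthases *Hpgds* and *Ptgds*, the prostaglandin receptors *Ptgdr2*, *Ptger2* and *Ptger4*, and the leukotriene genes *Alox5*, *Alox5ap* and *Ltc4s*. They were chosen by symbol from a given list, with earlier results of these data known, and are 10 of the 31053 genes in the matrices. All 10 were found. The study asked what innate lymphoid cells (ILCs) do in lupus nephritis. It sequenced 1 library of pooled kidneys from old and 1 from young MRL-*lpr* mice, a lupus-prone strain in which both ages carry the *lpr* mutation of *Fas*. The labels give age only as young and old, without the sex or number of mice, and the study's methods name female mice. Libraries were made with 10x Chromium 3′ v3.1 chemistry from cells enriched by a density gradient and an ILC enrichment kit, so shares of a library are not frequencies in the kidney. With 1 library per age nothing checks a difference between the libraries, and every interval below is a 95% interval of counting error only.

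Prostaglandins and leukotrienes are short-lived lipids that are made from arachidonic acid when phospholipases release it from membranes. Cyclooxygenases turn it into prostaglandin H, from which separate synthases make prostaglandins D and E, prostacyclin and thromboxane, while 5-lipoxygenase, helped by an activating protein in the nuclear membrane, opens the leukotriene branch. In the kidney prostaglandins act on blood flow and on salt and water handling, and in leukocytes both families steer recruitment and activation, with group 2 innate lymphoid cells (ILC2s) known to sense and in part to make them.

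The young library held 156787812 unique molecular identifiers (UMIs, 1 per captured transcript) in 15076 barcodes, and the old library 126334256 in 12622. Dropping barcodes under 200 genes or over 20% mitochondrial UMIs left 11429 young cells with a median of 7881 UMIs and 10232 old cells with a median of 6933. The libraries shared 41 barcode sequences, 26 of them among kept cells. Cells were assigned to classes by how many genes of a fixed marker list they carried, and none of the 10 genes is a marker. The number of markers needed was set after the marker counts had been seen. The gates took in 81.1% of young and 84.9% of old cells, and 2161 young and 1544 old cells met no gate or met gates of unrelated classes. Of these, 547 young and 526 old cells met gates of unrelated classes. Doublet calls by Scrublet fell on 332 young and 270 old cells, which were kept.

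The largest class was the cells gated as proximal tubule, the first segment of the nephron, with 5742 young and 3222 old cells and median depths of 16008 and 16303 UMIs. ILC2-gated cells numbered 1555 and 345, with median depths of 5257 and 5598 UMIs. T-gated cells numbered 487 and 3892, with median depths of 4703 and 4907.5 UMIs. The ILC2 gate asked for 4 of 6 markers. It had 370 young and 64 old cells at that minimum, and 159 young and 36 old ungated cells were 1 marker short. A set of 9 classes held at least 50 cells in both libraries and were compared between them, which adds B, macrophage, monocyte, neutrophil, plasmacytoid dendritic and NK or ILC1 cells to the 3 above. Endothelial (275 and 17 cells), basophil (17 and 10), loop of Henle (27 and 53) and distal tubule (3 and 67) cells are described but were not compared. Median depth in the macrophage gate was 4583 UMIs in the young and 12177 in the old library, and in the neutrophil gate 2350 and 4014.5. Levels are in CPM, a gene's UMIs for every 1000 × 1000 UMIs that a class holds in a library. They are compared between classes and libraries, not between genes. Where 2 values follow each other without a library, the young one comes first. A gene without a UMI is given the level that 3 UMIs would have. Y-linked transcripts without *Xist* were seen in 50.8% of young and 40.6% of old cells, and *Xist* without Y-linked transcripts in 14.6% and 29.1%. Y-linked transcripts are not those of female mice, so the pools did not match the stated sex, and the reason was not tested. The age difference and this difference between the pools cannot be told apart. For the 10 genes, a ratio that lay outside its interval within either kind of cell is therefore also given there. Both libraries needed at least 10 such cells. Ratios of other genes were not split in this way.

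**Figure D1:**
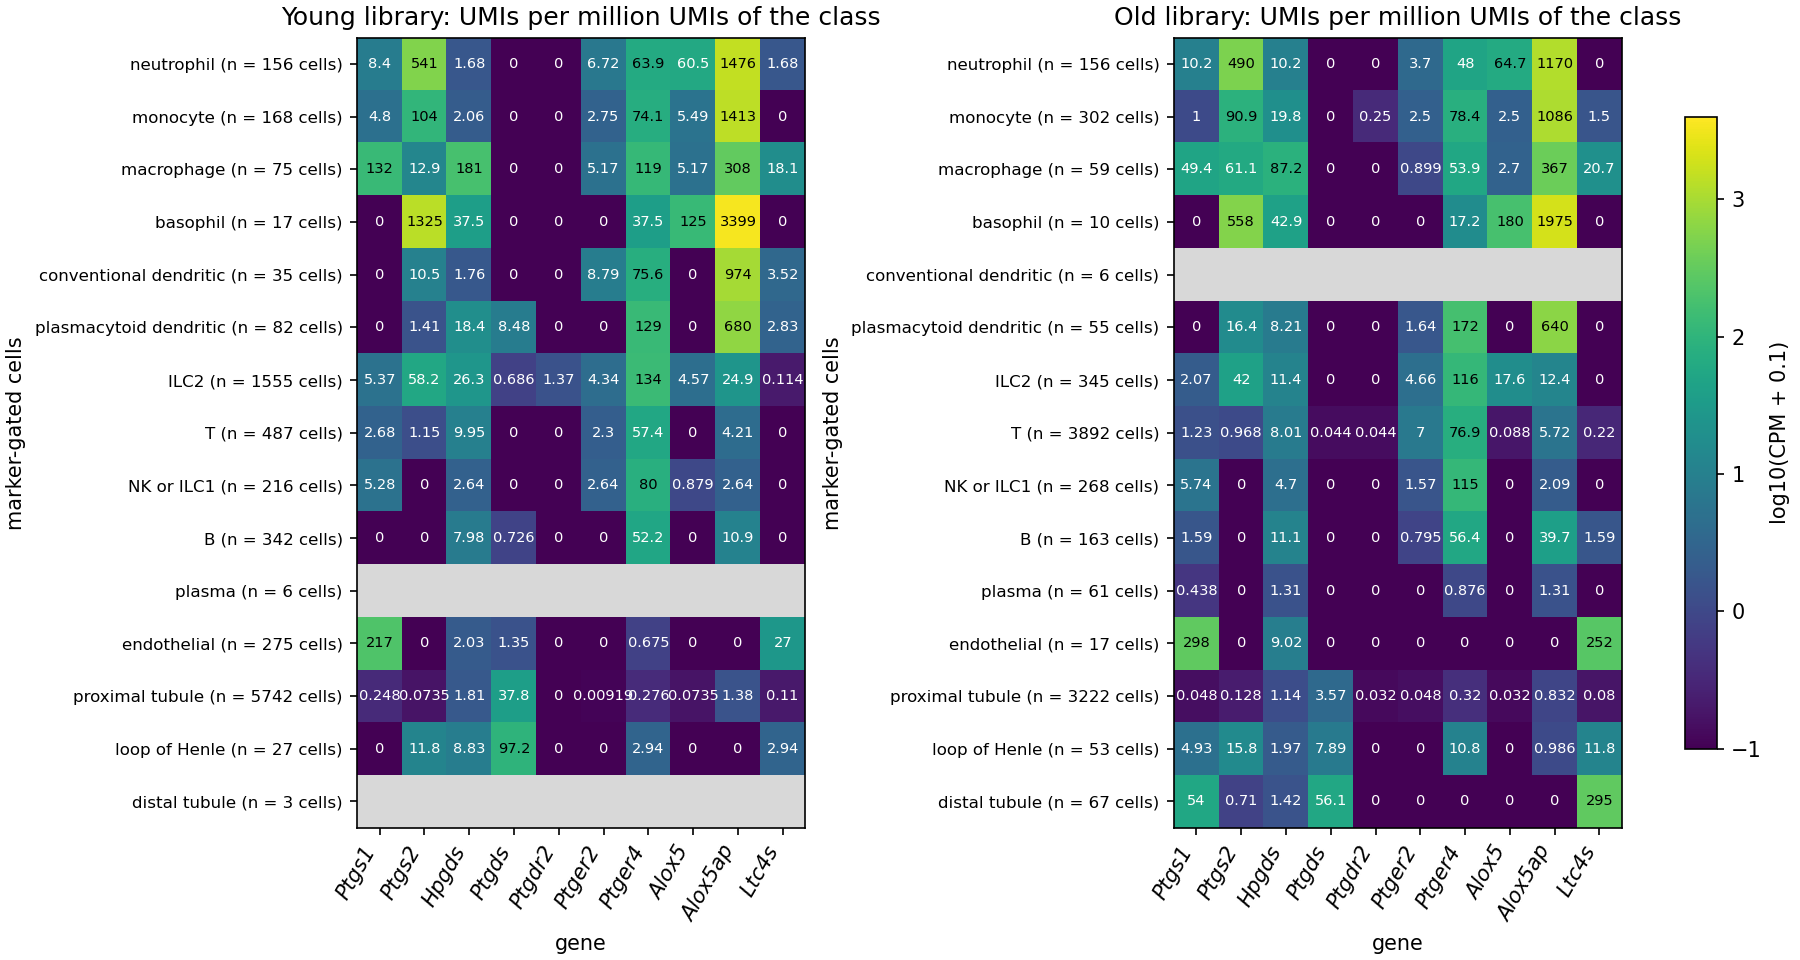
Levels in CPM of the 10 genes (columns) in each class with at least 10 cells (rows), for the young and the old library; the colour scale is logarithmic and grey marks classes with fewer than 10 cells. *Alox5ap* and *Ptgs2* are high in neutrophil-gated and monocyte-gated cells of both libraries, and *Ltc4s* stands at 295 CPM in old distal tubule cells.

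*Ptgs1* (ENSMUSG00000047250, chromosome 2, 36230426 to 36252272 on GRCm38) encodes cyclooxygenase-1, the form that most tissues carry at rest. It had 634 UMIs in the young and 378 in the old library. In young endothelial-gated cells its level was 217 CPM (194–242), from 321 UMIs in 152 of 275 cells. In the 17 old endothelial-gated cells it was 298 CPM (205–418), from 33 UMIs in 9 cells. Macrophage-gated cells stood at 132 CPM (98.2–173) and 49.4 CPM (37.2–64.4). Old distal tubule cells reached 54.0 CPM (42.5–67.5), with a UMI in 29 of 67 cells. Among classes of at least 50 cells in a library, endothelial and macrophage cells thus carried the highest young levels. Distal tubule and macrophage cells carried the highest old ones.

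The order of classes below these was not resolved. In the young library the endothelial level exceeded the macrophage level by a log2 ratio of 0.72 (0.29–1.17), a direction that turned to −0.92 with 1 marker fewer per gate. The macrophage level exceeded that of neutrophil-gated cells, 8.40 CPM, by 3.97 (2.66–5.65). Neutrophil, ILC2 (5.37 CPM), NK or ILC1 (5.28 CPM), monocyte (4.80 CPM) and T cells (2.68 CPM) did not differ from their neighbours beyond counting error. The old distal tubule and macrophage levels did not differ either, with a log2 ratio of 0.13 (−0.39 to 0.65), and macrophage exceeded neutrophil cells (10.2 CPM) by 2.28 (1.33–3.37). Macrophage-gated over monocyte-gated cells gave 4.78 (3.63–6.16) and 5.63 (4.19–7.55), so *Ptgs1* separated these neighbouring myeloid classes in both.

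In macrophage-gated cells *Ptgs1* was lower in the old library by a log2 ratio of −1.41 (−1.99 to −0.84). Within Y-linked cells, 27 in each library, it was −2.26 (−3.31 to −1.26), and within *Xist* cells, 12 and 17, it was −0.44 (−1.53 to 0.81), which is within counting error. The share of cells with a UMI was 40.0% (28.9–52.0%) and 32.2% (20.6–45.6%), and 10.96% and 5.26% once each cell was thinned to 1000 UMIs. The share in proximal tubule cells, which should lack the gene, was 0.331% and 0.0931%, and 0.0526% and 0 after thinning. In ILC2-gated cells 5.37 CPM and 2.07 CPM gave −1.37 (−3.31 to 0.08), and in T-gated cells the ratio was −1.12 (−2.35 to 0.32), so neither differed beyond counting error. The T ratio became −2.41 with 1 marker fewer. Proximal tubule cells had 27 young UMIs (0.248 CPM) and 3 old UMIs (0.0480 CPM), a log2 ratio of −2.37 (−4.73 to −0.67) that turned to 0.91 with 1 marker fewer.

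The macrophage gate itself differed between the libraries. Of the 6 monocyte markers, 5 had UMIs in young macrophage-gated cells, where *Chil3* was at 0, and their sum was 4387 CPM with *Lyz2* highest at 2962 CPM. All 6 had UMIs in old ones, and the sum was 23286 CPM with *Lyz2* at 22200 CPM. The 6 macrophage markers, *C1qa* the most abundant, summed to 13910 CPM and 11274 CPM. The part of these differences, and of depth, in the macrophage ratios given here and below was not tested.

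*Ptgs2* (ENSMUSG00000032487, chromosome 1, 150100031 to 150108227) encodes cyclooxygenase-2, the inducible form. It had 1472 young and 1521 old UMIs. Levels were highest in myeloid classes, but ILC2-gated cells held 509 of the young UMIs, beside 322 in neutrophil-gated and 152 in monocyte-gated cells. Of the old UMIs 530 lay in neutrophil-gated, 363 in monocyte-gated and 81 in ILC2-gated cells. Neutrophil-gated cells stood at 541 CPM (484–604) and 490 CPM (449–533), a log2 ratio of −0.14 (−0.35 to 0.06). A UMI was found in 89 of 156 young neutrophil cells (57.1%) and 106 of 156 old ones (67.9%), and after thinning in 37.4% and 37.7%. Monocyte-gated cells stood at 104 CPM (88.4–122) and 90.9 CPM (81.8–101), a ratio of −0.20 (−0.48 to 0.08). Over all cells neither ratio lay beyond counting error. In neutrophil cells with Y-linked UMIs the old level was lower by −0.71 (−1.05 to −0.38), and in monocyte cells with *Xist* by −1.01 (−1.79 to −0.19). Proximal tubule cells showed the gene in 0.139% and 0.248% of cells before thinning, and in 0 and 0.0311% after it.

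ILC2-gated cells were the lymphoid class with the highest *Ptgs2* level. They stood at 58.2 CPM (53.2–63.5) and 42.0 CPM (33.3–52.2). T-gated cells stood at 1.148 CPM and 0.968 CPM, and NK or ILC1 and B cells had no UMI in either library. The ILC2 level exceeded the T level by a log2 ratio of 5.66 (4.11–7.95) and 5.44 (4.74–6.19). Among classes, neutrophil exceeded monocyte cells by 2.38 (2.09–2.66) and 2.43 (2.23–2.63). Young monocyte exceeded young ILC2 cells by 0.84 (0.57–1.11), and ILC2 exceeded macrophage cells by 2.17 (0.94–3.80). Old monocyte exceeded old macrophage cells by 0.57 (0.20–0.97), and macrophage exceeded ILC2 cells by 0.54 (0.06–1.03). Over all cells the place of ILC2 and macrophage cells in the order was therefore not the same in both libraries. The old macrophage level rested on 68 UMIs in 9 of 59 cells. With Y-linked UMIs alone the ILC2 values were higher in both libraries, at 57.2 and 51.2 CPM beside 28.7 and 45.8 CPM in macrophage cells. The macrophage values there rested on 5 and 25 UMIs, and no interval was computed for that order. With *Xist* alone ILC2 cells stood at 49.4 and 9.54 CPM. Macrophage cells had 0 UMIs in 12 young cells and stood at 85.7 CPM in 17 old ones. So few young cells do not place the 2 classes, and a change of order was not resolved there.

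The *Ptgs2* UMIs of ILC2-gated cells sat in few cells. Among young cells 509 UMIs lay in 119 of 1555 cells (7.65%), of which 13 cells had at least 10 UMIs and the highest had 25. Among old cells 81 UMIs lay in 12 of 345 cells (3.48%), 4 of them with at least 10 UMIs and the highest with 21. After thinning the shares were 2.91% (2.13–3.88%) and 1.17% (0.321–2.98%). The old over young ratio of the class was −0.47 (−0.83 to −0.13), and it became −0.83 (−1.24 to −0.44) when the cell with the most *Ptgs2* UMIs was left out of each library. A Poisson interval treats UMIs as independent, which UMIs gathered in few cells are not. Among cells with Y-linked UMIs and no *Xist* the ratio was −0.16 (−0.61 to 0.26), and among cells with *Xist* and no Y-linked UMI it was −2.37 (−4.02 to −1.11), from 121 young and 5 old UMIs.

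The young ILC2-gated cells with a *Ptgs2* UMI carried the ILC2 marker list at 4068 CPM, beside 4194 CPM in those without one. The 6 neutrophil markers summed to 9.80 CPM in cells with and 5.88 CPM in cells without a *Ptgs2* UMI, and the 6 monocyte markers to 99.1 and 138 CPM. In old ILC2-gated cells with a *Ptgs2* UMI all neutrophil markers were at 0. Neutrophil-gated cells of these libraries carried their list at 67965 and 113431 CPM, so neutrophil transcripts were near 0 in the ILC2-gated cells that held *Ptgs2*. Cells that also met the gate of an unrelated class had been left out, so the gate itself limits these values. The source of the *Ptgs2* UMIs was not tested.

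Macrophage-gated cells had 5 *Ptgs2* UMIs in the young library (12.9 CPM, 4.20–30.2) and 68 in the old (61.1 CPM, 47.5–77.5). The level was higher in the old library by 2.24 (0.95–3.91), and the 68 UMIs lay in 9 of 59 cells, 18 of them in 1 cell. All 5 young UMIs lay in Y-linked cells, where the ratio was 0.68 (−0.74 to 2.42), within counting error. In *Xist* cells there were 0 young and 25 old UMIs. With the young count set to the limit of 3 UMIs the log2 ratio was 0.75, and the lower end of its interval was 0.34. Without the highest cell of each library the old level was 47.2 CPM and the ratio 3.11 (1.18–6.20). Basophil-gated cells, too few to compare, had a UMI in 11 of 17 young and 7 of 10 old cells, at 1325 CPM (1084–1602) and 558 CPM (431–712). Young basophil cells exceeded the neutrophil level by a log2 ratio of 1.29 (0.96–1.61), and the old ratio was 0.19 (−0.21 to 0.56).

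*Hpgds* (ENSMUSG00000029919, chromosome 6, 65117293 to 65144908) encodes the glutathione-dependent synthase that makes prostaglandin D in hematopoietic cells. It had 673 young and 630 old UMIs. Macrophage-gated cells stood at 181 CPM (141–229) and 87.2 CPM (70.7–106), from UMIs in 32 of 75 and 37 of 59 cells. ILC2-gated cells stood at 26.3 CPM (23.0–29.9) and 11.4 CPM (7.14–17.3), from 230 UMIs in 187 cells and 22 UMIs in 20 cells. T-gated cells stood at 9.95 CPM (6.50–14.6) and 8.01 CPM (6.89–9.26). Macrophage cells were thus the highest class of at least 50 cells in both libraries, and ILC2 cells came next in the young library alone.

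The old over young ratio of *Hpgds* was −1.05 (−1.51 to −0.59) in macrophage-gated and −1.21 (−1.91 to −0.57) in ILC2-gated cells. In macrophage-gated cells it was −0.39 (−1.21 to 0.49) with Y-linked UMIs alone and −0.39 (−1.48 to 0.85) with *Xist* alone, both within counting error. It was −0.95 (−1.91 to −0.12) in ILC2-gated cells with Y-linked UMIs alone and −1.46 (−2.95 to −0.27) in those with *Xist* alone. In T-gated cells it was −0.31 (−0.91 to 0.34), within counting error, but not in every subset. Cells without CD4 or CD8 UMIs had 14 young UMIs in 9 of 195 cells and 38 old UMIs in 34 of 1556, or 15.1 and 5.36 CPM, −1.499 (−2.42 to −0.50), while CD4 cells gave −0.60 (−1.97 to 1.11) and CD8 cells 0.84 (−0.26 to 2.19). The ILC2 marker list summed to 1376 CPM in the 19 young T-gated cells with *Hpgds* and 652 CPM in those without it, and to 519 and 459 CPM in old ones, and its part in the T ratios was not tested. Monocyte-gated cells went the other way, with 3 young UMIs (2.06 CPM, 0.425–6.02) and 79 old UMIs in 43 of 302 cells (19.8 CPM, 15.7–24.7), a ratio of 3.26 (1.66–5.57). In monocyte-gated cells 5 of 6 macrophage markers had UMIs in the young library, where *C1qc* was at 0, and they summed to 971 CPM with *Csf1r* at 516 CPM. All 6 had UMIs in the old library, with a sum of 1266 CPM and *Csf1r* at 794 CPM. Their part in the *Hpgds* difference was not tested.

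By class, young macrophage exceeded young ILC2 cells by 2.78 (2.38–3.17), and ILC2, plasmacytoid dendritic (18.4 CPM), T and B cells (7.98 CPM) did not differ from their neighbours. ILC2 and T cells, which are not neighbours in that order, differed by 1.402 (0.81–2.05). In the old library macrophage exceeded monocyte cells by 2.14 (1.70–2.59) and monocyte exceeded ILC2 cells by 0.80 (0.10–1.55), and ILC2, B, neutrophil, plasmacytoid dendritic, T and NK or ILC1 cells did not differ from their neighbours. The ILC2 over T ratio there was 0.51 (−0.20 to 1.152). A gap between ILC2-gated and T-gated cells was therefore measured in the young library and was not detectable in the old one at this depth.

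Shares of ILC2-gated cells with *Hpgds* were 12.03% (10.4–13.7%) and 5.80% (3.58–8.81%), and 2.26% and 0.880% after thinning. T-gated cells gave 3.90% and 3.91%, and 1.03% and 0.517% after thinning. In proximal tubule cells, with median depths of 16008 and 16303 UMIs beside 5257 and 5598 in ILC2-gated cells, the shares were 2.82% and 1.89%, and 0.175% and 0.0622% after thinning. ILC2 levels exceeded the proximal tubule level by 3.86 (3.58–4.14) and 3.33 (2.57–4.03) on the log2 scale. The 8 proximal tubule markers stood in ILC2-gated cells at 4.30% of their tubule level in the young and 1.93% in the old library, and *Hpgds* at those percentages of its tubule level would be 0.0778 and 0.0220 CPM.

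Within proximal tubule cells *Hpgds* was lower in the old library by −0.67 (−1.08 to −0.27), from 1.81 CPM to 1.14 CPM. The ratio was −0.89 (−1.51 to −0.31) in cells with *Slc5a2* alone and 0.14 (−1.25 to 1.45) in those with *Slc7a13* alone. It was −0.55 (−1.21 to 0.08) in cells with neither or both. The last ratios lay within counting error, so a difference in direction between the subsets was not resolved. The level was higher in cells with *Slc5a2*, a gene of the early segment, than in cells with *Slc7a13*, a gene of the late segment, by 2.60 (1.796–3.52) and 1.57 (0.47–2.83). Among old T-gated cells those with CD8 UMIs stood at 12.6 CPM (10.3–15.3) and those with CD4 UMIs at 5.15 CPM (3.57–7.20), a CD4 over CD8 ratio of −1.29 (−1.89 to −0.72). In the young library the 2 subsets had 7 and 5 UMIs, too few for a ratio between them.

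*Ptgds* (ENSMUSG00000015090, chromosome 2, 25466709 to 25470046) encodes the lipocalin-type synthase, which also carries lipophilic ligands outside the cell. It had 5001 UMIs in the young and 373 in the old library, and proximal tubule cells held most of them. Their level was 37.8 CPM (36.7–39.0) in the young library, from 4117 UMIs in 463 of 5742 cells (8.06%), and 3.57 CPM (3.12–4.07) in the old, from 223 UMIs in 36 of 3222 cells (1.12%). The old level was lower by a log2 ratio of −3.41 (−3.61 to −3.21), and the young level was 10.6 times the old. With 1 marker fewer per gate the ratio was −4.68. After thinning the shares were 2.07% (1.71–2.47%) and 0.187% (0.0685–0.406%). In B-gated cells, which should lack the gene and had median depths of 3793.5 and 5923 UMIs, 1 of 342 young (0.292%) and 0 of 163 old cells had a UMI, and none after thinning. The young share thus stood well above that of B cells. After thinning the interval of the old share lay within the limit that B cells allow, but 163 cells set that limit too high to separate them. By level, old proximal tubule cells exceeded old T-gated cells by 6.34 (3.85–11.65).

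The tubule UMIs of *Ptgds* were gathered in few cells. In the young library 97 proximal tubule cells had at least 10 UMIs and the highest had 142. Of the old cells 3 had at least 10 UMIs, and 1 of them held 88 of the 223 UMIs. Without the highest cell of each library the levels were 36.6 CPM (35.4–37.7) and 2.16 CPM (1.81–2.56), and the ratio was −4.08 (−4.34 to −3.83).

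*Slc5a2* and *Slc7a13* also split the proximal tubule cells for *Ptgds*. Proximal tubule cells with *Slc5a2* and no *Slc7a13* stood at 88.2 CPM (85.2–91.3) in the young library, with a UMI in 355 of 2251 cells, and at 10.2 CPM (8.80–11.7) in the old, with a UMI in 27 of 1187 cells. Cells with *Slc7a13* and no *Slc5a2* stood at 0.778 CPM (0.488–1.18) and 0.243 CPM (0.0661–0.621). The early over late ratio was 6.82 (6.22–7.50) and 5.39 (4.01–7.28). *Ptgds* was thus far higher in cells with the early-segment gene in both libraries, and the old library was lower in both subsets, by −3.12 (−3.33 to −2.91) and −1.68 (−3.68 to −0.12).

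Within the early-segment cells the difference between the libraries was not the same by sex transcripts. Cells with Y-linked UMIs and no *Xist* stood at 70.1 CPM (66.6–73.7) in the young library and at 2.31 CPM (1.46–3.46) in the old, a ratio of −4.92 (−5.59 to −4.33). Cells with *Xist* and no Y-linked UMI stood at 116 CPM (109–124) and 32.2 CPM (27.6–37.4), a ratio of −1.85 (−2.09 to −1.61). *Xist* cells thus exceeded Y-linked cells by 0.73 (0.61–0.85) in the young and by 3.80 (3.17–4.50) in the old library. The old *Xist* value rested on 172 UMIs in 15 of 305 cells, and without its highest cell, which held 88, it was 15.8 CPM (12.6–19.5). The old Y-linked value was 1.31 CPM (0.696–2.24) without its highest cell, which held 10 of 23 UMIs. Without the highest cell of each library the ratios were −5.62 (−6.53 to −4.84) in Y-linked and −2.75 (−3.09 to −2.43) in *Xist* cells. Over all proximal tubule cells the ratio was −5.01 (−5.55 to −4.51) in Y-linked and −2.23 (−2.47 to −2.00) in *Xist* cells. The gene was lower in the old library in both kinds of cell.

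**Figure D2:**
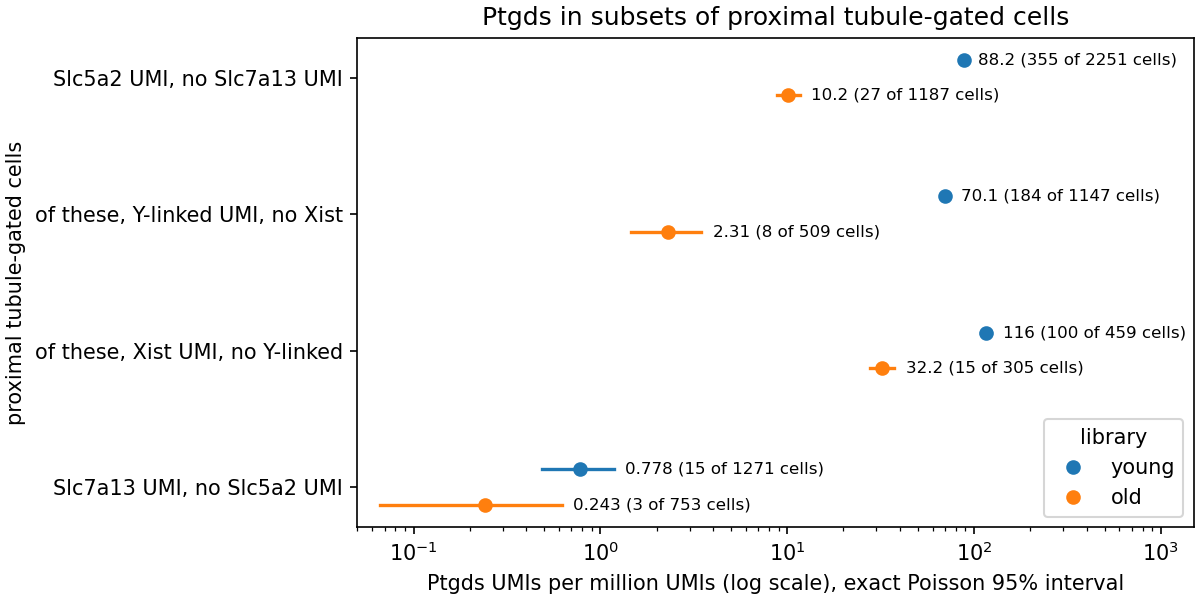
*Ptgds* level in CPM (logarithmic axis) in proximal tubule cells of the young and the old library, for cells with *Slc5a2* and no *Slc7a13*, for the same cells split by sex transcripts, and for cells with *Slc7a13* and no *Slc5a2*; points are levels and bars their 95% counting intervals. Each old point lies below its young counterpart, and cells with *Slc5a2* lie above those with *Slc7a13*.

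Outside the proximal tubule *Ptgds* appeared in the later nephron. Old distal tubule cells stood at 56.1 CPM (44.4–69.9), with a UMI in 30 of 67 cells. Loop of Henle cells stood at 97.2 CPM (66.9–136) in the young library, from 33 UMIs in 11 of 27 cells, and at 7.89 CPM (3.41–15.5) in the old, from 8 UMIs. Of the 8 old UMIs 1 cell held 5, and without it the level was 3.15 CPM (0.649–9.19). Among old classes distal tubule exceeded loop of Henle cells by 2.83 (1.78–4.09), and loop of Henle and proximal tubule cells did not differ, with 1.14 (−0.09 to 2.15). Among leukocytes, young plasmacytoid dendritic cells had 6 UMIs (8.48 CPM, 3.11–18.4), and proximal tubule cells exceeded them by 2.16 (1.04–3.61). The 3 distal tubule cells of the young library gave no level to compare.

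*Ptgdr2* (ENSMUSG00000034117, chromosome 19, 10937160 to 10942511) encodes the prostaglandin D receptor CRTH2, which ILC2s, T helper 2 cells and basophils are known to carry. It was almost not captured, with 14 UMIs in the young and 5 in the old library. Of these, 12 lay in 10 of 1555 young ILC2-gated cells, a level of 1.37 CPM (0.709–2.40), and 0 in the 345 old ones, which allows up to 1.55 CPM. Every other class of at least 10 cells had at most 2 UMIs, basophil cells among them. No difference between the libraries was detectable at this depth.

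*Ptger2* (ENSMUSG00000037759, chromosome 14, 44988195 to 45003820) encodes the prostaglandin E receptor EP2, which raises cyclic AMP. It had 83 young and 223 old UMIs. T-gated cells stood at 2.30 CPM (0.842–4.997) in the young library, from 6 UMIs, and at 6.995 CPM (5.95–8.17) in the old, from 159 UMIs in 140 of 3892 cells. ILC2-gated cells stood at 4.34 CPM (3.07–5.96) and 4.66 CPM (2.13–8.85). The old level was higher by 1.61 (0.45–3.08) in T-gated cells, and the ratio in ILC2-gated cells was 0.10 (−1.13 to 1.18). Within T-gated cells with Y-linked UMIs the ratio was 1.78 (0.16–4.10), and within those with *Xist* it was 1.64 (−0.89 to 6.96), where the young library had 1 UMI.

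Above the proximal tubule, which had 1 young and 3 old *Ptger2* UMIs, no class of at least 50 cells differed from its neighbour in the order in either library. The T over ILC2 ratio was −0.92 (−2.45 to 0.33) and 0.59 (−0.38 to 1.74), both within counting error, while T exceeded proximal tubule cells by 7.96 (4.92–13.49) and 7.19 (5.61–9.48). The share of T-gated cells with a UMI was 1.23% and 3.597%, and 0.207% and 0.543% after thinning, beside 0.0174% and 0.0931% of proximal tubule cells and 0 after thinning. Old T-gated cells with CD4 UMIs stood at 11.5 CPM (9.07–14.4) and those with CD8 UMIs at 3.06 CPM (1.98–4.51), a ratio of 1.91 (1.24–2.63). Cells without CD4 or CD8 UMIs stood between them at 6.77 CPM (4.99–8.98). The 124 old cells with *Foxp3*, the gene of regulatory T cells, stood at 11.7 CPM (5.60–21.5). *Ptger2* in old T-gated cells was thus higher in the CD4 than in the CD8 subset, the reverse of *Hpgds*.

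*Ptger4* (ENSMUSG00000039942, chromosome 15, 5206661 to 5244187) encodes EP4, the other prostaglandin E receptor coupled to cyclic AMP. With 2309 young and 3298 old UMIs it was found in every leukocyte class compared. ILC2-gated cells stood at 134 CPM (126–142) and 116 CPM (101–132). Plasmacytoid dendritic cells stood at 129 CPM (104–158) and 172 CPM (141–209). T-gated cells stood at 57.4 CPM (48.6–67.3) and 76.9 CPM (73.3–80.6). Proximal tubule cells were at 0.276 CPM and 0.320 CPM, and endothelial cells had 1 young and 0 old UMIs. Old loop of Henle cells stood at 10.8 CPM (5.41–19.4), and the 61 old plasma cells, a leukocyte class not compared, at 0.876 CPM (0.106–3.17). The other compared leukocyte classes ranged from 52.2 to 119 CPM among young and from 48.0 to 115 CPM among old cells.

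In the young library ILC2, plasmacytoid dendritic and macrophage cells (119 CPM) did not differ from their neighbours. Macrophage exceeded NK or ILC1 cells (80.0 CPM) by 0.57 (0.03–1.10), and from there to B cells (52.2 CPM) no neighbours differed. In the old library plasmacytoid dendritic exceeded ILC2 cells by 0.58 (0.23–0.92), which turned to −0.0400 with 1 marker fewer per gate, and ILC2 and NK or ILC1 cells (115 CPM) did not differ. NK or ILC1 exceeded monocyte cells (78.4 CPM) by 0.55 (0.30–0.80), monocyte and T cells did not differ, and T exceeded B cells (56.4 CPM) by 0.45 (0.10–0.81). B, macrophage (53.9 CPM) and neutrophil cells (48.0 CPM) did not differ. The ILC2 level exceeded the T level by 1.22 (0.98–1.48) and 0.59 (0.38–0.79).

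Between the libraries *Ptger4* was higher in old T-gated cells by 0.42 (0.18–0.67) and in old NK or ILC1 cells by 0.52 (0.16–0.89). The T ratio was 0.13 (−0.20 to 0.47) in Y-linked and 0.53 (−0.05 to 1.19) in *Xist* cells, so within either kind it was within counting error. NK or ILC1 cells gave 0.50 (0.03–0.98) with Y-linked UMIs and 0.08 (−0.79 to 1.05) with *Xist*. It was lower in old macrophage-gated cells by −1.14 (−1.72 to −0.55), which became −0.0355 with 1 marker fewer per gate and −0.14 as the mean over cells of each cell's CPM. Old ILC2-gated cells were lower by −0.21 (−0.43 to −0.01). That ILC2 ratio was 0.11 (−0.15 to 0.37) in cells with Y-linked UMIs and −1.03 (−1.58 to −0.53) in cells with *Xist*, so its direction depended on which cells were read. In plasmacytoid dendritic cells the ratio was 0.42 (0.00–0.84), and it turned to −0.14 with 1 marker fewer. B, monocyte and neutrophil cells did not differ beyond counting error, and monocyte cells with Y-linked UMIs gave −0.38 (−0.82 to 0.07).

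The T-gated difference was not spread evenly over subsets. Cells with CD4 UMIs stood at 32.9 CPM (20.4–50.3) and 81.0 CPM (74.3–88.2), a ratio of 1.30 (0.67–2.01). Cells with CD8 UMIs stood at 56.3 CPM (42.5–73.1) and 77.1 CPM (71.2–83.4), a ratio of 0.45 (0.06–0.88). Cells with neither stood at 75.7 CPM (59.1–95.7) and 71.4 CPM (65.3–77.9), a ratio of −0.09 (−0.45 to 0.30). Cells with *Foxp3* stood at 49.6 CPM (25.6–86.6) and 109.7 CPM (88.7–134). The old values of the 3 subsets by CD4 and CD8 thus lay closer together than the young ones. Shares of cells with a *Ptger4* UMI were 42.1% and 37.1% in ILC2-gated and 21.8% and 29.1% in T-gated cells. After thinning they were 11.6% and 8.50%, and 4.13% and 7.73%, beside 0.0175% and 0 in proximal tubule cells. Among old T-gated cells, 41.4% of those with *Ptger2* also had *Ptger4*, beside 28.6% of those without it, and among young ones 1 of 6 did, beside 21.8%.

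**Figure D3:**
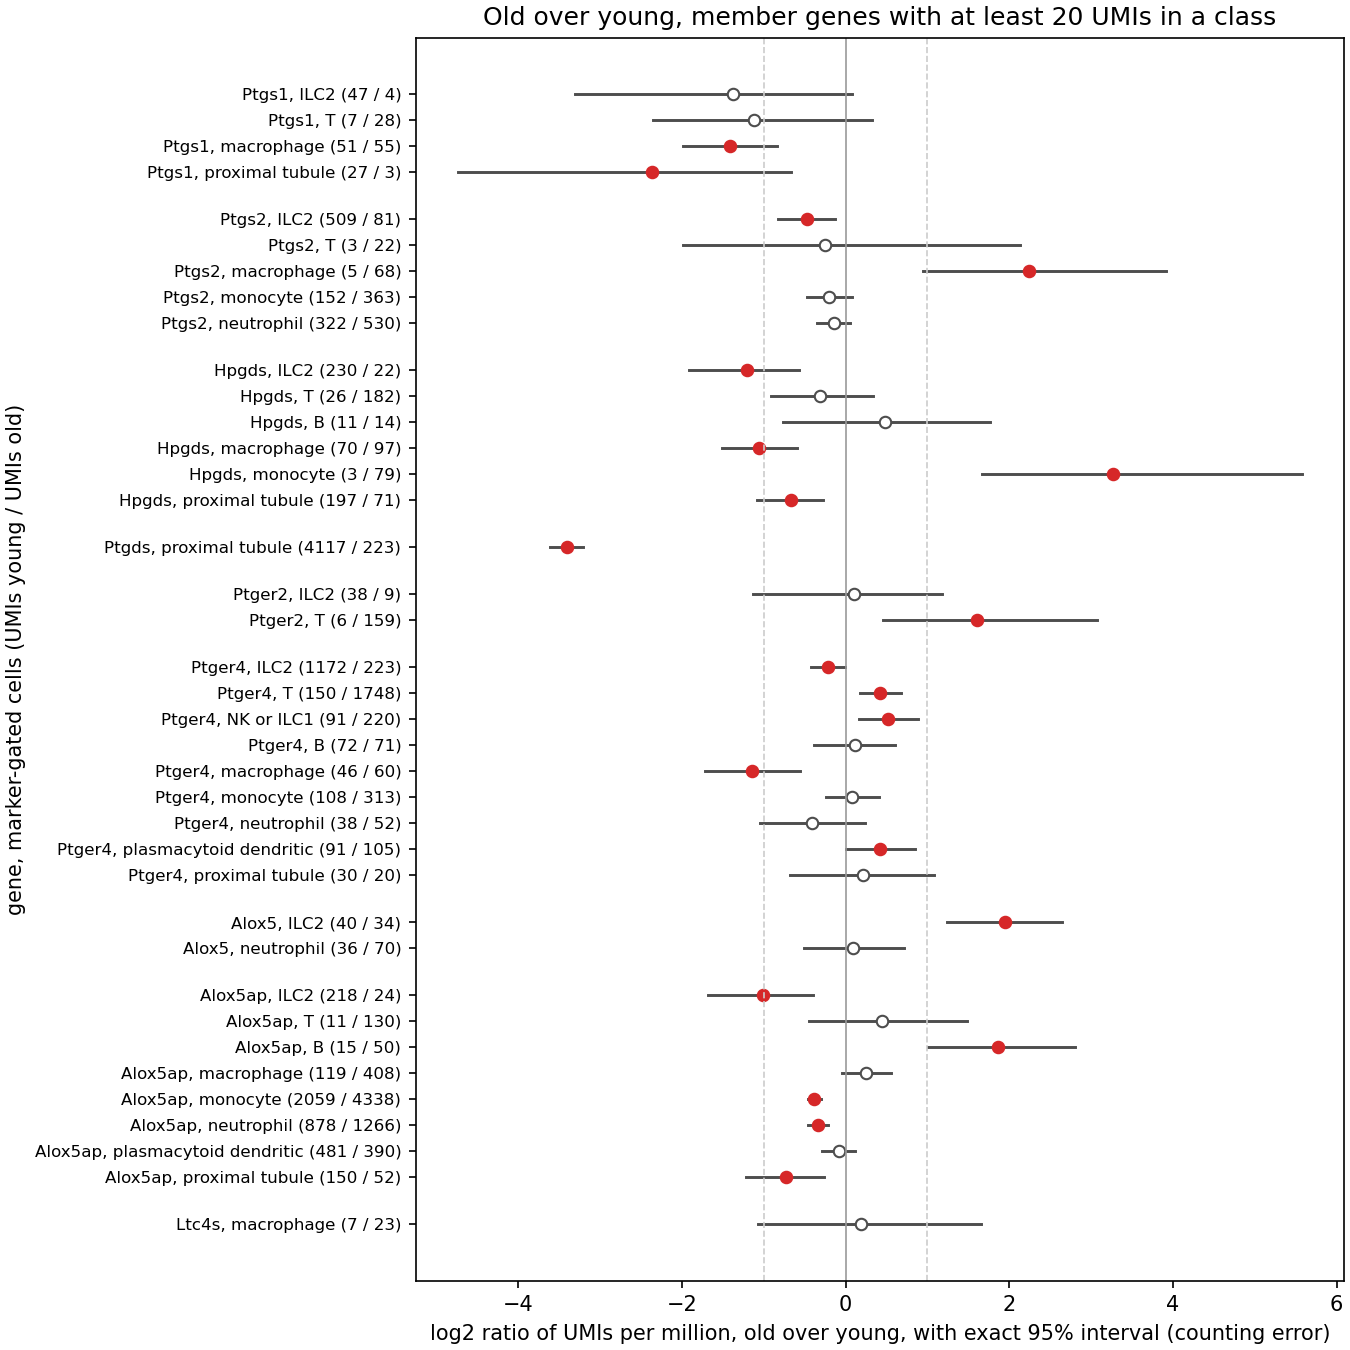
Log2 ratios of CPM, old over young, for each gene and class with at least 20 UMIs over both libraries; points are ratios, bars their 95% counting intervals, red marks intervals that do not include 0, and dashed lines mark a 2-fold difference. *Ptgds* in proximal tubule cells lies lowest at −3.41, and *Hpgds* in monocyte-gated cells highest at 3.26.

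*Alox5* (ENSMUSG00000025701, chromosome 6, 116410077 to 116461178) encodes 5-lipoxygenase, the first enzyme of leukotriene synthesis. It had 133 young and 185 old UMIs. Neutrophil-gated cells stood at 60.5 CPM (42.4–83.8) and 64.7 CPM (50.4–81.7), a ratio of 0.10 (−0.50 to 0.72). ILC2-gated cells stood at 4.57 CPM (3.27–6.23) in the young library, from 40 UMIs in 31 cells, and at 17.6 CPM (12.2–24.6) in the old, from 34 UMIs in 25 cells. T-gated cells had 0 young UMIs, which allows up to 1.148 CPM, and 2 old UMIs (0.0880 CPM). Neutrophil cells were thus alike in both libraries, while ILC2-gated cells were higher in the old library by 1.95 (1.24–2.64).

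The *Alox5* difference in ILC2-gated cells had the same direction in each subset. It was 2.53 (1.54–3.56) in cells with Y-linked UMIs and 1.33 (−0.23 to 2.76) in cells with *Xist*, the latter within counting error. In cells with a UMI of the cytokine genes *Il5* or *Il13* it was 2.88 (1.53–4.23), from 4.14 CPM and 30.5 CPM, and in cells without one 1.62 (0.77–2.46), from 4.76 CPM and 14.7 CPM. Without the highest cell of each library it was 1.96 (1.21–2.71). Shares of ILC2-gated cells with a UMI were 1.99% (1.36–2.82%) and 7.25% (4.74–10.5%), beside 0.139% and 0.0621% in proximal tubule cells. After thinning to 1000 UMIs they were 0.323% (0.105–0.753%) and 0.587% (0.0711–2.10%), so at that depth a difference was not detectable. In the old ILC2-gated cells with an *Alox5* UMI all 6 neutrophil markers were at 0. In the 31 young ones these markers summed to 24.0 CPM, beside 5.94 CPM in young cells without *Alox5*.

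In the young library neutrophil exceeded monocyte cells (5.49 CPM) by 3.46 (2.33–4.78), and monocyte, macrophage (5.17 CPM) and ILC2 cells did not differ from their neighbours. In the old library neutrophil exceeded ILC2 cells by 1.88 (1.27–2.51), and ILC2 exceeded macrophage cells (2.70 CPM) by 2.71 (1.04–5.05). The old ILC2 over T ratio was 7.65 (5.68–10.75). Among young cells, with T-gated cells set to the limit of 3 UMIs, the log2 ratio was 1.99, and the lower end of its interval was 1.63. Basophil-gated cells stood at 125 CPM (59.9–230) and 180.4 CPM (112–276), the latter above the old neutrophil level by 1.48 (0.70–2.20).

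*Alox5ap* (ENSMUSG00000060063, chromosome 5, 149264767 to 149288153) encodes the activating protein that presents arachidonic acid to 5-lipoxygenase. With 6136 young and 8831 old UMIs it was the most often captured of the 10 genes. Neutrophil-gated cells stood at 1476 CPM (1379.8–1577) and 1169.8 CPM (1106–1236). Monocyte-gated cells stood at 1413 CPM (1353–1476) and 1086 CPM (1054–1119). Plasmacytoid dendritic cells stood at 680 CPM (620–743) and 640 CPM (578–707), and macrophage-gated cells at 308 CPM (255–368) and 367 CPM (332–404). Every other class of at least 50 cells in both libraries was under 40 CPM. A UMI was found in 95.5% and 96.2% of neutrophil cells and in 78.1% and 68.8% after thinning, beside 2.25% and 1.49%, and 0.105% and 0.0933% after thinning, in proximal tubule cells.

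Neutrophil and monocyte levels were close. Their ratio was 0.06 (−0.05 to 0.18) and 0.11 (0.02–0.20), and the old ratio turned to −0.13 with 1 marker more per gate and to −0.0188 with abundant genes left out of the total. Both exceeded plasmacytoid dendritic cells, which exceeded macrophage cells by 1.14 (0.85–1.45) and 0.80 (0.60–1.01). Both were lower in the old library, neutrophil cells by −0.34 (−0.46 to −0.21) and monocyte cells by −0.38 (−0.46 to −0.30). In monocyte cells the ratio was −0.28 (−0.38 to −0.18) with Y-linked UMIs and −0.62 (−0.78 to −0.45) with *Xist*. Plasmacytoid dendritic and macrophage cells did not differ between the libraries beyond counting error, but the former gave −0.29 (−0.54 to −0.05) with Y-linked UMIs. Macrophage cells with *Xist* gave −0.46 (−1.10 to 0.23). Basophil-gated cells, with a UMI in each of 17 young and 10 old cells, stood at 3399 CPM (3007–3828) and 1975 CPM (1728–2248). The 35 young conventional dendritic cells stood at 974 CPM (895–1059).

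Lymphoid classes carried far less *Alox5ap*. ILC2-gated cells stood at 24.9 CPM (21.7–28.5) in the young library, from 218 UMIs in 142 cells, and at 12.4 CPM (7.97–18.5) in the old, from 24 UMIs in 19 cells. T-gated cells stood at 4.21 CPM (2.10–7.53) and 5.72 CPM (4.78–6.79). B-gated cells stood at 10.9 CPM (6.09–17.95) and 39.7 CPM (29.5–52.4). ILC2 cells exceeded B cells in the young library by 1.20 (0.44–2.06), and B exceeded ILC2 cells in the old by 1.68 (0.95–2.44). ILC2 cells exceeded T cells by 2.57 (1.70–3.59) and 1.12 (0.43–1.76). Young T-gated cells held 11 UMIs in 3 cells, all without CD4 or CD8 UMIs, and 1 of these cells held 9. In the subset without CD4 or CD8 UMIs the old level was lower by −1.70 (−2.76 to −0.53). That ratio rested largely on 1 young cell and was not computed without it. All T-gated cells with *Xist* and no Y-linked UMI had 0 young UMIs in 74 cells and 39 old UMIs. In the 36 old T-gated cells with *Alox5ap* the monocyte markers summed to 3039 CPM, the macrophage markers to 354.5 CPM and the neutrophil markers to 113 CPM, beside 807, 13.2 and 10.7 CPM in old ones without it. Their part in the T-gated levels was not tested. The *Alox5ap* log2 old over young in T-gated cells, 0.44 (−0.44 to 1.48), became 2.40 with the cell with the most UMIs of the gene left out of each library.

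The ILC2 ratio of *Alox5ap* was −1.003 (−1.68 to −0.39). It was −0.13 (−0.95 to 0.62) in cells with Y-linked UMIs and −2.88 (−5.18 to −1.29) in cells with *Xist*, the latter from 103 young and 3 old UMIs. In young cells *Alox5ap* was higher with than without *Il5* or *Il13* by 0.88 (0.48–1.27), and in old cells by 1.12 (−0.31 to 2.43). *Ptgs2* was higher with these cytokine genes by 0.48 (0.22–0.75) and 0.78 (0.02–1.504), where 2 of 58 old cytokine-positive cells held its 23 UMIs. *Hpgds* was higher with them in the young library by 0.58 (0.19–0.98), and its old ratio was −1.20 (−4.34 to 0.84). Cells with *Il5* or *Il13* had a median of 5895 UMIs in the young library and those without them 5034. Of the ILC2-gated cells with *Alox5*, 6 of 31 young and 5 of 25 old ones also had *Alox5ap*, beside 8.92% and 4.38% of those without it.

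In B-gated cells *Alox5ap* was higher in the old library by 1.87 (1.01–2.81). The direction turned to −0.15 with 1 marker more per gate. The ratio was 4.93 (2.35–10.29) in cells with Y-linked UMIs, where the young library had 1 UMI, and 0.10 (−1.10 to 1.32) in cells with *Xist*. The 6 monocyte markers summed to 549 CPM in young B-gated cells, with 5 of 6 present and *Chil3* at 0, and to 1718 CPM in old ones, with 4 of 6 present and *Ccr2* and *Chil3* at 0, *Plac8* being the most abundant in both (419 and 629.6 CPM). The 6 macrophage markers summed to 7.98 and 35.0 CPM, *Adgre1* and *Csf1r* being the most abundant, with *C1qb* and *C1qc* at 0 in the young and *C1qa* at 0 in the old library. Their part in this difference was not tested. Proximal tubule cells were lower in the old library by −0.73 (−1.21 to −0.26), from 1.38 CPM to 0.832 CPM, but this became −0.0412 with 1 marker more per gate and −0.10 as the mean over cells.

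*Ltc4s* (ENSMUSG00000020377, chromosome 11, 50236461 to 50238616) encodes leukotriene C4 synthase, which joins glutathione to leukotriene A4. It had 87 UMIs in the young and 780 in the old library. In old distal tubule cells its level was 295 CPM (268–325), from 416 UMIs in 49 of 67 cells (73.1%), 16 of which had at least 10 UMIs. After thinning 24.6% of these cells (14.8–36.9%) had a UMI, beside 0 of the old proximal tubule and 0 of the B-gated cells. The 3 distal tubule cells of the young library held 2 UMIs. Distal tubule cells therefore held most of its old UMIs, and the young library had too few such cells for a comparison.

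Endothelial-gated cells stood at 27.0 CPM (19.3–36.8) in the young library, from 40 UMIs in 22 of 275 cells, and at 252 CPM (168–365) in the old, from 28 UMIs in 5 of 17 cells. Of the 28 old UMIs 1 cell held 16, and without it the level was 119.7 CPM (61.8–209). All 5 old cells also had *Ptgs1*, and no distal tubule marker had a UMI in that gate. Macrophage-gated cells stood at 18.1 CPM (7.27–37.3) and 20.7 CPM (13.1–31.0), a ratio of 0.19 (−1.07 to 1.66). Among old classes distal tubule exceeded macrophage cells by 3.84 (3.23–4.51), and macrophage and loop of Henle cells (11.8 CPM) did not differ. Among young classes endothelial and macrophage cells did not differ, with 0.58 (−0.60 to 1.98). Neutrophil and ILC2 cells, which carried *Alox5* and *Alox5ap*, had at most 1 *Ltc4s* UMI in a library, and basophil cells none.

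In old distal tubule cells 22 of 67 had both *Ptgds* and *Ltc4s*, and 20 had both *Ptgs1* and *Ltc4s*. *Ltc4s* was found in 73.3% of the cells with *Ptgds* and in 73.0% of those without it, so detection of the one did not go with detection of the other. The gate rested on *Slc12a3* and *Pvalb*, both at work there with a sum of 9982 CPM. *Umod*, a marker of the loop of Henle, stood in the same cells at 4949 CPM, with the other loop marker *Slc12a1* at 0. A cell with both loop markers would have tied with the loop gate and stayed ungated, so the gate itself limits the *Slc12a1* value. The 3 collecting duct markers summed to 48.3 CPM, with *Hsd11b2* highest at 43.3 CPM.

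Counting genes past a 2-fold difference between the libraries, among those with at least 100 UMIs in a class, places the 10 genes beside all others. The filter sums the UMIs of both libraries, and these were 8747967 young and 1929987 old over ILC2-gated and 2613716 and 22729112 over T-gated cells. In ILC2-gated cells 4 of the 10 passed the filter and 2 were past 2-fold, *Hpgds* and *Alox5ap*, where 4.16% of all genes were (330 of 7934, 114 higher and 216 lower). Their UMIs were 230 and 22, and 218 and 24, so both passed through the library where they were high. In T-gated cells 4 passed and *Ptger2* was past 2-fold, where 8.36% of all genes were (806 of 9642). Its 6 and 159 UMIs passed through the old library alone, and nothing is read from the direction of these counts. In proximal tubule cells 3 passed and *Ptgds* was past 2-fold, where 5.11% of all genes were (621 of 12158). In monocyte-gated cells 3 passed and 0 were past 2-fold, where 5.89% of all genes were (337 of 5717), and in neutrophil-gated cells 3 passed and 0 were, where 8.09% of all genes were (191 of 2361). In macrophage-gated cells 4 passed and 3 were past 2-fold, *Ptgs1*, *Hpgds* and *Ptger4*, where 20% of all genes were (427 of 2140, 240 higher and 187 lower). That share of all genes was the largest of the 9 classes. None of the 10 was past 2-fold in the other 3 classes, where 2 passed in plasmacytoid dendritic cells beside 1.95% of all genes (43 of 2202), 1 in NK or ILC1 cells beside 3.39% (146 of 4309), and 1 in B-gated cells beside 6.14% (226 of 3680). *Ptgdr2* and *Ltc4s* passed the filter in none of the 9 classes, *Ptgs1* in macrophage-gated cells alone and *Alox5* in neutrophil-gated cells alone. Past 2-fold but under the filter were *Alox5* in ILC2-gated, *Hpgds* in monocyte-gated, *Ptgs2* in macrophage-gated and *Alox5ap* in B-gated cells, and *Ptgs1* in ILC2-gated, T-gated and proximal tubule cells.

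The list of other genes of the pathway held 58, and the same filter and its limit apply to them. In ILC2-gated cells 20 of them passed the filter, with a median of 0.00, and 2 were past 2-fold, where 4.16% of all genes were. The leukotriene receptor gene *Cysltr2* was higher in the old library, at 21.0 and 52.3 CPM, a ratio of 1.32 (0.95–1.67). The epoxide hydrolase gene *Ephx2* was lower, at 15.7 and 5.70 CPM, −1.46 (−2.49 to −0.57). ILC2-gated cells carried further receptors within 2-fold in both libraries. The leukotriene B4 receptor gene *Ltb4r1* stood at 329 and 259.6 CPM, the cysteinyl leukotriene receptor gene *Cysltr1* at 139 and 182 CPM, and the prostacyclin receptor gene *Ptgir* at 99.8 and 122 CPM. *Pparg*, a nuclear receptor for prostaglandin products, stood at 101.5 and 96.4 CPM. ILC2-gated cells thus held transcripts of receptors for prostaglandin E, prostacyclin and both kinds of leukotriene in both libraries.

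In T-gated cells 21 of the 58 passed, with a median of 0.06, and 6 were past 2-fold, where 8.36% of all genes were. Higher in the old library were the leukotriene A4 hydrolase gene *Lta4h*, at 35.2 and 77.7 CPM, 1.14 (0.84–1.46), and the lipoxygenase gene *Alox12*, at 0.383 CPM from 1 UMI and 4.75 CPM, 3.63 (1.13–8.95). *Ltb4r1* was lower, at 35.2 and 2.38 CPM, −3.89 (−4.40 to −3.39). The ILC2 markers summed to 686 and 462 CPM in T-gated cells, and their part in this ratio was not tested. The tubule genes *Ggt1* (50.5 and 19.9 CPM), *Dpep1* (10.7 and 4.09 CPM) and *Ephx2* (17.6 and 6.56 CPM) were lower as well. All 8 proximal tubule markers had UMIs in T-gated cells, with a sum of 583 CPM and 238 CPM and *Miox* the most abundant, 4.57% and 2.10% of their tubule level. At those percentages of their own tubule levels *Ggt1* would stand at 37.6 and 16.2 CPM, *Dpep1* at 8.53 and 3.46 CPM, and *Ephx2* at 12.6 and 6.30 CPM. The same arithmetic for *Ephx2* in ILC2-gated cells gave 11.8 and 5.81 CPM. The part of tubule RNA in these levels was not tested.

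In monocyte-gated cells 19 of the 58 passed, with a median of 0.06, and 6 were past 2-fold, where 5.89% of all genes were. The receptor genes *Fpr2* (52.2 and 271 CPM, 2.38) and *Cmklr1* (16.5 and 54.3 CPM, 1.72), with *Pparg* (30.2 and 61.9 CPM, 1.03) and the transporter gene *Abcc4* (10.98 and 22.3 CPM, 1.02), were higher in the old library. *Cysltr1* was lower (36.4 and 18.03 CPM, −1.01). *Hpgd*, whose enzyme inactivates prostaglandins, was lower at 339 and 39.8 CPM, −3.09 (−3.36 to −2.83). In neutrophil-gated cells 7 passed, with a median of −0.24, and 3 were past 2-fold, where 8.09% of all genes were. *Akr1b3* (33.6 and 197.7 CPM, 2.56) and *Fpr2* (119 and 310.5 CPM, 1.38) were higher, and *Hpgd* was lower at 197 and 21.3 CPM, −3.21 (−3.92 to −2.56). *Hpgd* also stood at 292 and 43.2 CPM in macrophage-gated cells, −2.76 (−3.28 to −2.26), and at 4.49 and 0.464 CPM in proximal tubule cells, −3.27 (−3.87 to −2.73). Its UMIs were 494 and 159 in monocyte, 117 and 23 in neutrophil, 113 and 48 in macrophage and 488 and 29 in proximal tubule cells, so in the last 3 it passed through the young library, where it was high, and nothing is read from their number.

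In proximal tubule cells 25 of the 58 passed, with a median of 0.08, and 4 were past 2-fold, where 5.11% of all genes were. The thromboxane synthase gene *Tbxas1* (11.1 and 25.4 CPM, 1.20) and the carbonyl reductase gene *Cbr3* (0.395 and 3.22 CPM, 3.03) were higher in the old library. *Akr1c18* was lower (5.11 and 0.144 CPM, −5.15), as was *Hpgd*. In macrophage-gated cells 8 passed, with a median of 0.79, and 3 were past 2-fold, where 20% of all genes were. *Hpgd* was lower, and the phospholipase gene *Pla2g16* was higher in the old library (38.8 and 142 CPM, 1.87). The secreted phospholipase gene *Pla2g2d* had 0 UMIs in the young and 547 in the old library (492 CPM), 63.4-fold higher with the young count set to the limit of 3 UMIs. In B-gated cells 5 passed and 1 was past 2-fold, *Pla2g16*, higher in the old library, where 6.14% of all genes were. In NK or ILC1 cells 4 passed and in plasmacytoid dendritic cells 2, and 0 were past 2-fold, beside 3.39% and 1.95% of all genes.

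The levels over the 9 compared classes and both libraries gave 18 profiles, in which 13897 genes had at least 100 UMIs. By Pearson correlation of log2(CPM + 1), the genes most like *Ptgs1* were *Extl3* (r = 0.87), *BC037034* (0.84) and *Itga9* (0.83), and those most like *Ptgs2* were *Rasgrp4* (0.93), *Pygl* (0.93) and *Krt80* (0.92). For *Hpgds* they were *Usp35* (0.82), *Cep70* (0.81) and *Slc4a8* (0.80), and for *Ptgds* *Rnf212b* (0.97), *Gm47101* (0.97) and *2310040G07Rik* (0.96). For *Ptger2* they were *Jdp2* (0.89), *9430060I03Rik* (0.86) and *Lcp2* (0.85), and for *Ptger4* *Plcb2* (0.97), *Slc38a1* (0.97) and *Aim2* (0.97). For *Alox5* they were *Rnd1* (0.92), *Cpeb2* (0.90) and *Ggt5* (0.90), and for *Alox5ap* *Gpr35* (0.98), *Csf2rb* (0.97) and *Ogfrl1* (0.96). The choice of measure decided many of these names. With Spearman correlation 0 of the 3 genes stayed among the 3 most alike for *Ptgs1*, *Ptgs2* and *Ptger4*, 1 for *Hpgds* and *Ptgds*, and 2 for *Ptger2*, *Alox5* and *Alox5ap*. With a pseudocount of 10 it was 0 for *Hpgds*, 1 for *Ptgs1*, *Ptger4* and *Alox5*, 2 for *Ptgs2*, *Ptgds* and *Ptger2*, and 3 for *Alox5ap*. *Ptgdr2* and *Ltc4s* had too few UMIs in these classes. Profiles of 1 library share its depth and its free RNA, and the correlations are descriptions over 18 points.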

How the data were processed

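The authors aligned reads to mm10 with Cell Ranger (3.1.0 in the matrix header) and deposited its raw UMI counts, which were used as they are. The 10 genes and all marker and pathway lists were chosen with earlier results of these data known. Work was done in Python 3.11.15 (SciPy 1.17.1, NumPy 2.4.6, pandas 2.3.3, Matplotlib 3.10.9, and Scanpy 1.11.5 for Scrublet). Levels have exact Poisson, shares exact Clopper-Pearson and ratios exact binomial intervals, and ratios need 20 UMIs. Thinning used seed 7 and left out cells under 1000 UMIs. No test was made, since each age has 1 library. Other pathway genes could be named at 10 CPM or more in a class, or past 2-fold with at least 100 UMIs there. Likeness is given for genes with at least 100 UMIs, with the 3 most alike. Subsets by CD4, CD8, *Foxp3*, *Slc5a2*, *Slc7a13*, *Il5* and *Il13*, tubule RNA estimates and leaving out the highest cell were chosen after the data were seen. Positions are from GENCODE M21. The ratio and likeness steps were tested on simulated data.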

Additional observations from a re-analysis of the deposited data

Results flagged for a closer look

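For *Ptgs2*, *Hpgds*, *Ptger4* and *Alox5ap* the ratios between the libraries had counting intervals that lay on opposite sides of 0 in different classes. The difference between classes was not tested. *Ptgs2*, as log2 old over young, was −0.47 in ILC2-gated and 2.24 in macrophage-gated cells. *Hpgds* was −1.21 in ILC2-gated, −1.05 in macrophage-gated and −0.67 in proximal tubule cells, and 3.26 in monocyte-gated cells. *Ptger4* was −0.21 in ILC2-gated and −1.14 in macrophage-gated cells, and 0.42 in T-gated, 0.52 in NK or ILC1 and 0.42 in plasmacytoid dendritic cells. *Alox5ap* was −1.003 in ILC2-gated, −0.38 in monocyte-gated, −0.34 in neutrophil-gated and −0.73 in proximal tubule cells, and 1.87 in B-gated cells. Of these, *Ptger4* in macrophage-gated cells became −0.0355 and in plasmacytoid dendritic cells −0.14 with 1 marker fewer, and *Alox5ap* became −0.0412 in proximal tubule and −0.15 in B-gated cells with 1 marker more. In ILC2-gated cells with Y-linked UMIs and no *Xist*, *Ptgs2* was −0.16, *Ptger4* 0.11 and *Alox5ap* −0.13. In macrophage-gated ones *Hpgds* was −0.39 and *Ptgs2* 0.68, and in T-gated ones *Ptger4* was 0.13. With *Xist* and no Y-linked UMI, *Ptger4* was 0.53 in T-gated and 0.08 in NK or ILC1 cells, and *Alox5ap* 0.10 in B-gated cells. The intervals of these subset ratios included 0.

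Cells outside every class, which entered no comparison, also carried the genes, *Ptgdr2* excepted, above the level that a count of 0 allows. Their young and old levels were 9.25 and 8.44 CPM for *Ptgs1*, 21.4 and 21.1 CPM for *Ptgs2*, and 6.55 and 7.44 CPM for *Hpgds*. They were 50.1 and 3.66 CPM for *Ptgds*, 1.20 and 1.83 CPM for *Ptger2*, and 27.7 and 27.5 CPM for *Ptger4*. They were 1.68 and 2.07 CPM for *Alox5*, 82.5 and 107 CPM for *Alox5ap*, and 1.14 and 15.7 CPM for *Ltc4s*. For several genes most of these UMIs lay in cells that met gates of 2 unrelated classes, among them 334 of 356 young and 313 of 357 old UMIs of *Ptgs2*, and 1266 of 1374 and 1738 of 1820 of *Alox5ap*. For old *Ptgs1* (33 of 143), *Ptgds* (15 of 62) and *Ltc4s* (94 of 266) most did not. Of these 143 *Ptgs1* UMIs 71 lay in 19 cells with a collecting duct principal marker, a class with 1 gated old cell. Of the 50 ungated old cells with *Ptgs1*, 42 had a proximal tubule marker.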

How the results depend on the processing

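With 1 marker fewer per gate, log2 old over young became 0.91 for *Ptgs1* in proximal tubule and −0.14 for *Ptger4* in plasmacytoid dendritic cells. The young endothelial over macrophage ratio of *Ptgs1* became −0.92, and the old plasmacytoid dendritic over ILC2 ratio of *Ptger4* −0.0400. With 1 marker more, *Alox5ap* old over young became −0.15 in B-gated cells, and its old neutrophil over monocyte ratio −0.13. That ratio was −0.0188 with abundant genes left out of the total. In cells with Y-linked UMIs alone *Ptger4* in ILC2-gated cells became 0.11. *Ptgds* in proximal tubule cells was −3.66 with 1 marker more, −4.68 with 1 fewer, −5.01 in Y-linked and −2.23 in *Xist* cells, and −4.08 without the highest cells. The causes were not tested.

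With at least 20 UMIs in place of 100, the counts of the 10 genes past 2-fold, with the share of all genes, were 4 of 7 in ILC2-gated (9.50%, 1035 of 10894), 2 of 6 in T-gated (14.6%, 1827 of 12512), 1 of 4 in monocyte-gated (10.4%, 966 of 9249), 1 of 3 in B-gated (11.9%, 985 of 8255), 4 of 6 in macrophage-gated (23.6%, 1602 of 6797) and 2 of 5 in proximal tubule cells (8.73%, 1264 of 14479). In neutrophil-gated (13.4%), plasmacytoid dendritic (6.55%) and NK or ILC1 cells (8.69%) the count was 0. Of the other pathway genes 4 of 28 were past 2-fold in ILC2-gated, 11 of 32 in T-gated and 12 of 31 in monocyte-gated cells. Their counts were 10 of 22 in neutrophil-gated, 11 of 25 in macrophage-gated and 4 of 35 in proximal tubule cells. They were 5 of 17 in B-gated, 4 of 20 in NK or ILC1 and 1 of 14 in plasmacytoid dendritic cells. With at least 500 UMIs the counts of the 10 genes were 0 of 2 in ILC2-gated (1.99%, 63 of 3172) and 0 of 1 in T-gated cells (4.67%, 269 of 5758). For the same 10 genes they were 0 of 1 in macrophage-gated (22.9%, 88 of 384) and 1 of 1 in proximal tubule cells (3.07%, 312 of 10160). At 1.5-fold the count of the 10 genes in proximal tubule cells was 3 of 3 (11.2%, 1365 of 12158). It was 2 of 4 in ILC2-gated (12.8%), 1 of 4 in T-gated (18.9%) and 3 of 4 in macrophage-gated cells (41.9%). In monocyte-gated (17.1%) and neutrophil-gated cells (20.1%) it was 0 of 3. It was 0 in B-gated (19.6%), NK or ILC1 (11.9%) and plasmacytoid dendritic cells (7.04%).

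*Hpgds* in ILC2-gated cells ranged from −1.46 to −0.93 and *Alox5* there from 1.33 to 2.53 over 10 alternatives, without a turn. The split by *Il5* or *Il13* was not among these. *Hpgds* was −2.63 (−5.70 to −0.73) in ILC2-gated cells with them, from 2 old UMIs, and −0.84 (−1.60 to −0.16) without. Of 366 ratios between the libraries under alternatives, 317 lay within the reported interval, 45 outside it, and 4 turned from a ratio whose interval did not include 0. Of 546 levels, 428 lay within their intervals. Of 162 shares at other thinning depths or without thinning, 47 did. Leaving abundant genes out of the total shifted all ratios of a class by −0.06 to 0.05. Further old over young ratios left their intervals. *Ptgs1* in T-gated cells became −2.41 with 1 marker fewer. *Ptgs2* in monocyte-gated cells became 0.18 with 1 marker more and −0.64 as the mean over cells, and *Alox5ap* there −0.14 and −0.54. *Alox5ap* in neutrophil-gated cells became −0.15 with 1 marker fewer and −0.18 as the mean over cells, and in plasmacytoid dendritic cells −0.50 with 1 marker fewer. Of 16 alternatives for the most alike genes, 7 kept at least 2 of the 3.

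No paired analysis was possible because each age has 1 library. Low counts limit comparisons of *Ptgdr2* in every class, of *Ltc4s* outside the distal tubule and endothelium, and of *Alox5* in ILC2-gated cells after thinning. Classes under 50 cells in a library, among them endothelial, basophil and distal tubule cells, were not compared between the libraries.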

Other observations

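Of the 266 *Ltc4s* UMIs in old cells outside every class, 251 lay in 20 cells with a distal tubule marker. The marker lists overlapped there. Of the 33 cells with *Ltc4s*, 30 had a proximal tubule, 23 a monocyte and 17 a loop of Henle marker. Another 10, not exclusive of these, had a collecting duct principal marker and held 121 UMIs. The class of these cells was not tested. The 1 old cell gated as collecting duct principal cell held 16 *Ltc4s* UMIs.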
